A study of Mus musculus with 28 samples.

Results

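The cytochrome P450 genes of families 1 to 3 were followed in mouse liver. They were taken as all genes whose probes carry a RefSeq accession that maps to a mouse symbol beginning with Cyp1a, Cyp1b, Cyp2 and a letter, or Cyp3a, with pseudogenes left out. The table of symbols holds 60 such genes, and 49 of them had at least 1 probe on the array (68 probes), among 31663 genes and unnamed features in all. A single pseudogene, Cyp2d13, was left out. Of the 49 genes, 46 could be tested, since 1 of their probes or more lay well above background on every array of some group. The other 3 genes (Cyp2ab1, Cyp2b23 and Cyp2w1) were above background on 1 array each. On all 28 arrays 38 of the 46 were above background, and the other 8 passed through some groups only. Where several probes passed, which was so for 15 of the 46, the brightest stood for the gene.

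Cytochromes P450 are haem enzymes of the endoplasmic reticulum that insert an oxygen atom into their substrates, with electrons passed on by the reductase Por. Those of families 1 to 3 oxidise drugs, plant compounds, steroids and fatty acids, and liver cells hold most of the body's stock of them. Their genes are switched by ligand-activated factors: the aryl hydrocarbon receptor AhR for family 1, the constitutive androstane receptor CAR for Cyp2b and Cyp2c genes and the pregnane X receptor PXR for Cyp3a genes. Several members also differ between male and female mouse liver, under control of the pattern in which growth hormone is released.

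All mice lacked Fah, the final enzyme of tyrosine breakdown, and depend on nitisinone (NTBC), a drug that blocks the pathway upstream and so keeps toxic intermediates from forming. Whole-liver RNA was measured on 28 single-colour Agilent arrays, 4 in each of 7 groups. Fah-/- mice and Fah-/- p53-/- mice were each sampled on full NTBC (7.5 mg/L in drinking water), on a reduced dose and on none, and Fah-/- p21-/- mice only on none. p53 is the factor that halts or kills cells with damaged DNA, and p21 (Cdkn1a) is a cell cycle inhibitor it induces. The labels conflict on the reduced dose, which is 25% of the full dose in those of the samples and 2.5% for 3 months in the series' design, so it is called reduced here. For the time without NTBC, the strain and the age of the mice, the sources used here give nothing. They also leave it unsaid whether a group's 4 samples are 4 animals, so p-values measure the spread between these samples, which may in part be technical.

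Some features of the series bear on every comparison below. The 3 doses were scanned in 3 separate periods, and each group on full or reduced NTBC filled a slide of its own, so a difference between doses cannot be told apart from a difference between scans and slides, nor one between genotypes on full or reduced NTBC from a difference between slides. By their sex transcripts 22 arrays were of male and 6 of female mice: the female ones were all 4 of Fah-/- p53-/- mice without NTBC and replicates 1 and 2 of Fah-/- p21-/- mice. In Fah-/- p53-/- mice, no NTBC against full NTBC therefore sets female against male arrays, so dose and sex cannot be told apart there. Across the 46 genes replicate 1 of Fah-/- p53-/- mice without NTBC and replicate 1 of Fah-/- p21-/- mice lay farthest from their groups, and they were the lowest of 4 arrays in 27 and 33 genes. Hepatocyte markers identified the tissue, with 7 of 8 listed genes tested, all above background. Their summed level was 11.65 to 11.93 on full NTBC and 10.02 to 10.32 without it in Fah-/- mice, and 11.75 to 12.02 and 10.04 to 10.15 in Fah-/- p53-/- mice. All 7 fell in both genotypes. Of 6 macrophage markers 6 and 5 rose, with summed levels going from 4.20 to 5.05 on full NTBC to 5.001 to 7.84 without it in Fah-/- mice, and from 4.30 to 5.14 to 5.86 to 6.35 in Fah-/- p53-/- mice. Of 5 tested cholangiocyte markers 4 and 3 rose (2.15 to 2.84 against 2.97 to 4.27, and 2.23 to 3.11 against 2.55 to 4.45). Endothelial markers gave 4 rises and 1 fall, and 1 rise and 2 falls, among 6, stellate cell markers 2 rises among 6 in each genotype, and lymphocyte markers 1 rise and 3 falls, and 5 falls, among 6. These marker counts stand beside 41.6% and 40.1% of all features that fell and 29.3% and 29.6% that rose. Probes for Fah, Trp53 and Cdkn1a were above background in every group, those that lack the gene included, and the sources used here do not place them relative to the deleted parts, so they check the labels only in part. In Fah-/- p53-/- mice the dimmer of the Trp53 probes had means of -2.75, -2.22 and -2.71 on full, reduced and no NTBC, against -1.37, -0.27 and -0.56 in Fah-/- mice, with no overlap at any dose, while limma called no difference for the brighter one. The Cdkn1a probe was at 3.09 to 3.57 in Fah-/- p21-/- mice and at 4.17 to 4.41 in Fah-/- mice without NTBC. In whole liver, fewer hepatocytes and less RNA per hepatocyte cannot be told apart, and the part of either in the P450 values was not tested.

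Levels are log2 processed intensities relative to the 75th percentile of each array, so a level of 0 equals that percentile. Differences are log2 fold changes with their standard error (SE) from limma, and rises, falls and calls refer to genes whose p-value adjusted over all 20303 features tested was under 0.05. Without NTBC, 36 of the 46 genes were called in Fah-/- mice, 29 of them lower and 7 higher than on full NTBC, where 70.9% of all features were called (41.6% lower, 29.3% higher). The median P450 change was -1.20 there, against -0.17 over all features. Fah-/- p53-/- mice had 40 of the 46 called without NTBC, 33 of them falls and 7 rises, beside 69.7% of features (40.1% lower, 29.6% higher), and medians of -1.67 and -0.14. This comparison in Fah-/- p53-/- mice sets 4 female arrays against 4 male ones. The 7 tested hepatocyte markers had medians of -1.71 and -1.74 without NTBC in Fah-/- and Fah-/- p53-/- mice. The 7 rises in each genotype include Cyp1b1, Cyp2c65 and Cyp2c66, which were above background on 1, 1 and 2 of the 4 full-NTBC arrays of Fah-/- mice and on 3, 0 and 3 of those of Fah-/- p53-/- mice. On the reduced dose, 22 of 46 were called in Fah-/- mice, 16 lower and 6 higher, and 24 of 46 in Fah-/- p53-/- mice, 19 lower and 5 higher. Of the 7 hepatocyte markers 6 and 5 fell on that dose (medians -0.71 and -0.62). Of all features 39.8% were called in each genotype, 22.3% lower and 17.4% higher in the former and 19.5% lower and 20.3% higher in the latter. These shares, and those without NTBC, also stand beside the subfamily counts below.

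The rises on the reduced dose were those of Cyp1a1, Cyp2a22, Cyp2b9, Cyp2b13, Cyp2c38 and Cyp2g1 in Fah-/- mice. Those of Fah-/- p53-/- mice were Cyp1a1, Cyp2a22, Cyp2b19, Cyp2c65 and Cyp2j6, of which Cyp1a1, Cyp2b19 and Cyp2c65 changed sign with normexp background correction (-0.12, -0.78 and -0.72). Without NTBC the 10 genes not called in Fah-/- mice were Cyp2b9, Cyp2b10, Cyp2b13, Cyp2c38, Cyp2c55, Cyp2j6, Cyp2j11, Cyp3a11, Cyp3a25 and Cyp3a57, and the 6 not called in Fah-/- p53-/- mice were Cyp2b9, Cyp2b10, Cyp2b13, Cyp2b19, Cyp2c55 and Cyp2g1.

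Without NTBC 28 genes fell and 6 rose in both genotypes by their brightest probes, and none was called in opposite directions. Of all features 41.6% and 40.1% fell and 29.3% and 29.6% rose, and the share called in both genotypes was not counted. The falls include Cyp2a4 and Cyp3a44, for which another probe was called higher in Fah-/- mice. These comparisons share no arrays, but in both of them dose goes with scan period and slide, and 1 fit gave their spread. Group means ran downwards from full through reduced to no NTBC in 26 of 46 genes in Fah-/- mice and in 30 in Fah-/- p53-/- mice, and upwards in 7 and 4. The share of all features in these orders was not counted. The split between falls and rises moved with the scaling of the arrays. With quantile normalization it was 20 lower and 9 higher in Fah-/- mice without NTBC and 14 lower and 11 higher on the reduced dose. With the authors' deposited table those splits were 19 and 9, and 14 and 10. In Fah-/- p53-/- mice on the reduced dose they were 12 and 7 with quantile normalization and 11 and 6 with the deposited table.

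**Figure D1:**
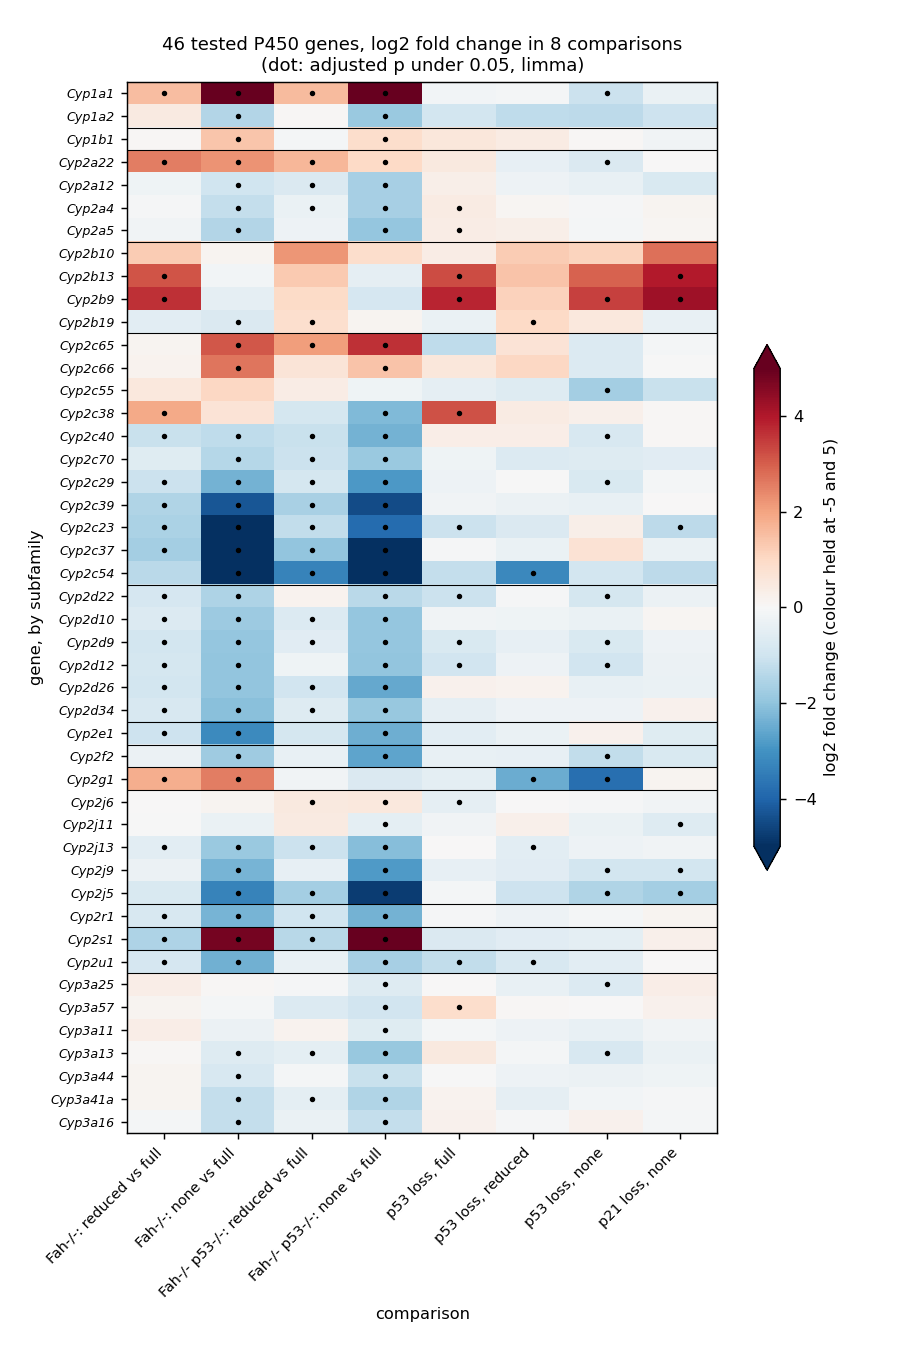
Log2 fold change of each of the 46 tested P450 genes (rows, by subfamily) in 8 comparisons (columns), with a dot where the limma adjusted p was under 0.05 and colours held at 5 in either direction. The columns for no NTBC are mostly lower, with 29 and 33 of 46 genes falling, and Cyp1a1 and Cyp2s1 stand out as the largest rises, by a log2 of 7.09 and 4.77 in Fah-/- mice.

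Family 1 holds Cyp1a1, Cyp1a2 and Cyp1b1, which oxidise polycyclic aromatics, and, for Cyp1a2, caffeine and aromatic amines. The AhR binds with its partner Arnt to sites with the core letters GCGTG. This core was looked for on both strands of the 300 bases around each gene's start (250 before, 50 after), from RefSeq's promoters on GRCm38.p6, where 42 of the 49 genes were listed. It was present in 8 of those 42 and in 32.4% of all 32851 promoters of that length, so a match alone says little, and these letters were chosen with the values known. The promoters of family 1 are shown because its members moved apart, with the core in capitals on either strand. They lie at chr9:57697363-57697662 (plus strand) for Cyp1a1, chr9:57683606-57683905 (minus strand) for Cyp1a2 and chr17:79715012-79715311 (minus strand) for Cyp1b1.
Cyp1a1: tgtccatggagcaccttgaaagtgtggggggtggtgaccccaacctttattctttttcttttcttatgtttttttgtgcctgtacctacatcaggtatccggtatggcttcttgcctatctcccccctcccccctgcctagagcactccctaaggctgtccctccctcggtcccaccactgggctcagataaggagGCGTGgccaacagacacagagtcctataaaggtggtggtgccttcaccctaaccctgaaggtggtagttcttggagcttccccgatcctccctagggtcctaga
Cyp1a2: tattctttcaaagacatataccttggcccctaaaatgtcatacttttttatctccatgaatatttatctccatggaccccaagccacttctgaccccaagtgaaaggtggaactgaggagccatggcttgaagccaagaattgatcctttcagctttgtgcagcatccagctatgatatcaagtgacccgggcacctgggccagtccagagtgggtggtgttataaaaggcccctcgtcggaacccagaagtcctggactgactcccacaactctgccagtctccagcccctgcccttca
Cyp1b1: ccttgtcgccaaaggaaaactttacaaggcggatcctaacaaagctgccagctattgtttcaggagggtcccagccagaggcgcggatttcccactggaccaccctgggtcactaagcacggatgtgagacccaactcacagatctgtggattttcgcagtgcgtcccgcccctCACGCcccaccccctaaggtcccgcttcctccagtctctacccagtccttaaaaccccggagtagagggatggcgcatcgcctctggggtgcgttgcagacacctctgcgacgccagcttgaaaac
The core occurs in the Cyp1a1 window, and on the other strand in that of Cyp1b1. No match in the Cyp1a2 window says only that these letters are not within it.

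Cyp1a1 rose more than any other member when NTBC was withdrawn, in both genotypes. Its log2 levels on full NTBC were -3.54, -3.58, -3.05 and -2.95 in Fah-/- mice, and 3.56, 3.98, 3.78 and 3.91 without it. Reduced NTBC gave values in between, -1.05, -1.80, -1.51 and -2.65. No array of 1 dose overlapped those of another, and the rise was 7.09 ± 0.31 (SE), adjusted p = 1.63e-14 (136-fold) without NTBC and 1.53 ± 0.31 (SE), adjusted p = 0.000471 (2.89-fold) on the reduced dose (limma). Fah-/- p53-/- mice gave -3.42, -3.55, -3.24 and -3.43 on full NTBC, -1.88, -2.17, -1.92 and -1.41 on the reduced dose and 1.68, 3.43, 3.01 and 2.79 without NTBC. Again the 3 doses did not overlap, with limma changes of 6.14 ± 0.31 (SE), adjusted p = 9.99e-14 (70.4-fold) and 1.56 ± 0.31 (SE), adjusted p = 0.000392 (2.95-fold). The smaller rises on the reduced dose depended on how background was treated. With normexp correction the change was 0.54 (adjusted p = 0.291) in Fah-/- mice and -0.12 (adjusted p = 0.748), its sign turned, in Fah-/- p53-/- mice.

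Cyp1a2 moved the other way. Fah-/- mice had levels of 4.08, 4.37, 4.14 and 4.64 on full NTBC and 2.22, 3.0, 3.67 and 2.47 without it, a change of -1.47 ± 0.62 (SE), adjusted p = 0.0398, by limma. The groups did not overlap, but the call was lost without any array except replicate 3 of those without NTBC (-1.54 to -1.26, adjusted p 0.0514 to 0.105), and with every other scaling (-1.23 to -1.05). In Fah-/- p53-/- mice the change was -1.85 ± 0.62 (SE), adjusted p = 0.0111, in groups that overlapped. It leaned on replicate 1 without NTBC, which stood at -1.57 beside 3.03, 2.27 and 2.44, and without that array it was -0.82 (adjusted p = 0.0552). Cyp1b1, which also oxidises oestrogens, was at -4.09, -4.11, -4.65 and -3.72 on full NTBC in Fah-/- mice and at -1.95, -2.56, -3.47 and -3.07 without it. Only 1 of its 4 full-NTBC arrays was above background, so the gene entered the test through groups in which it was high, and with normexp correction the means differed by 0.0032.

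Cyp2s1, a P450 of skin, airway and gut that dioxins also induce, turned with the dose. On full NTBC Fah-/- mice gave -0.48, -1.02, -1.76 and -2.0, on the reduced dose -3.33, -2.52, -2.74 and -2.91 and without NTBC 3.51, 4.10, 2.73 and 3.50. It therefore fell on the reduced dose (-1.56 ± 0.42 (SE), adjusted p = 0.00536) and rose without NTBC by 4.77 ± 0.42 (SE), adjusted p = 8.36e-10 (27.4-fold), with no overlap between the 3 groups (limma). Normexp correction ended the call of the fall (-0.97, adjusted p = 0.060) but not that of the rise. The arrays of Fah-/- p53-/- mice gave -1.96, -1.63, -1.40 and -3.23, then -4.53, -2.98, -3.71 and -2.57, then 2.93, 2.41, 3.25 and 3.30. The rise without NTBC was 5.03 ± 0.42 (SE), adjusted p = 3.25e-10 (32.6-fold), by limma. The change on the reduced dose was -1.40 ± 0.42 (SE), adjusted p = 0.0114, in groups that overlapped, and was lost without replicate 1 of the reduced dose (-1.04, adjusted p = 0.0578).

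**Figure D2:**
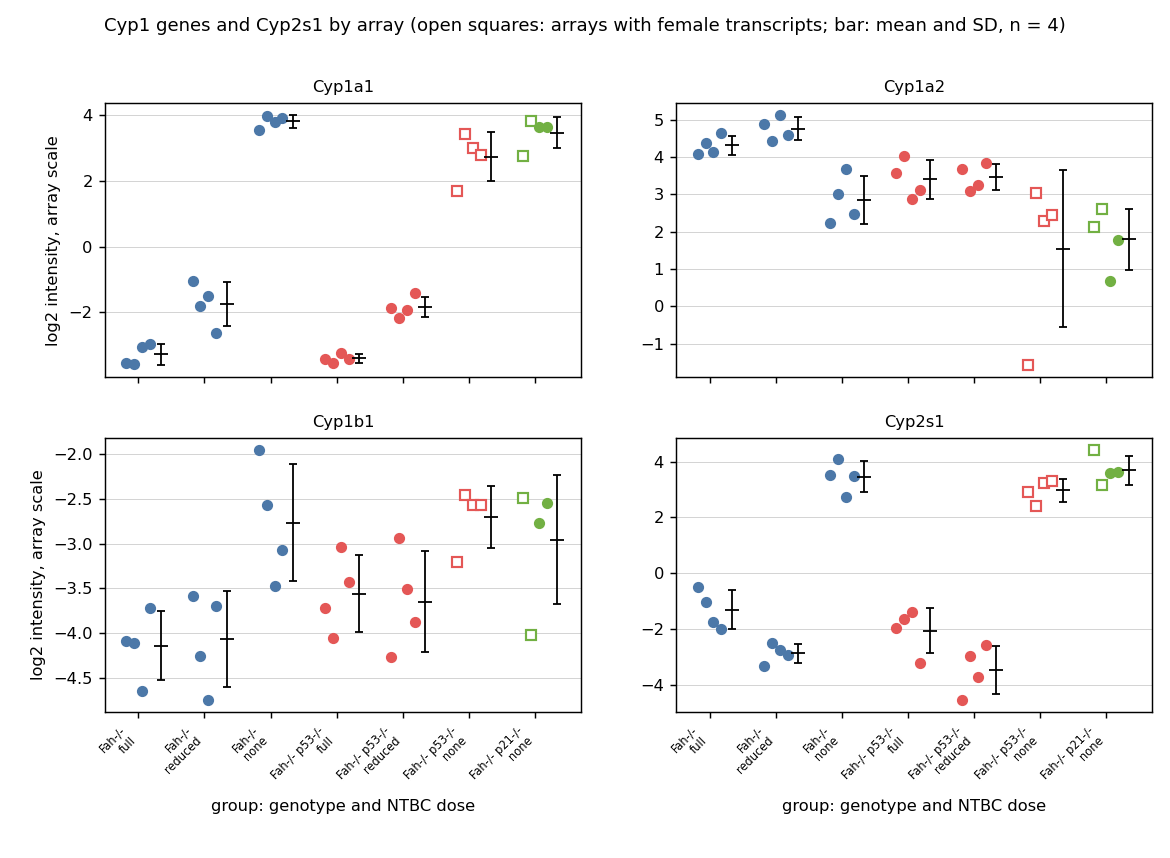
Log2 level relative to the array's 75th percentile (vertical axis) of Cyp1a1, Cyp1a2, Cyp1b1 and Cyp2s1 on each array (points, open squares for arrays with female transcripts) in the 7 groups (horizontal axis), with group means and SD, n = 4. Cyp1a1 lies between -3.58 and -2.95 in Fah-/- mice on full NTBC and between 3.56 and 3.98 without it, while Cyp1a2 is lower and more scattered without NTBC.

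The receptors of these pathways changed by less than Cyp1a1. Ahr itself rose by 0.96 ± 0.20 without NTBC in Fah-/- mice (limma adjusted p = 0.000136) and did not pass in Fah-/- p53-/- mice (0.38 ± 0.20, adjusted p = 0.0894). Arnt changed by -0.25 ± 0.12 (adjusted p = 0.0567) and -0.43 ± 0.12 (adjusted p = 0.00229). Of the AhR targets outside the P450s 3 of 5 were tested and 2 of 3 rose in each genotype, beside 29.3% and 29.6% of all features. These were Tiparp, which limits AhR signalling, by 1.30 and 1.43, and the quinone reductase Nqo1, which the oxidant sensor Nrf2 also drives, by 2.43 and 1.45. The AhR repressor Ahrr did not pass (0.40 and 0.65) and was not above background in several groups. Among all 6 xenobiotic receptors and partners, 1 rose and 2 fell in Fah-/- mice without NTBC, and 4 fell in Fah-/- p53-/- mice. Of all features 29.3% rose and 41.6% fell in the former, and 40.1% fell in the latter. CAR (Nr1i3) changed by -2.18 ± 0.21 and -1.68 ± 0.21, and Rxra, its partner, by -1.59 ± 0.10 and -1.61 ± 0.10, all of them called (limma). PXR (Nr1i2) was 0.01 ± 0.17 in Fah-/- mice (adjusted p = 0.971) and fell in Fah-/- p53-/- mice (-0.56, limma adjusted p = 0.00689).

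The Cyp2c genes oxidise arachidonic acid, steroids and many drugs, and their cluster held both the deepest falls and some of the rises. Of 11 tested, 7 fell and 2 rose without NTBC in Fah-/- mice (median change -1.43), and 8 fell and 2 rose in Fah-/- p53-/- mice (median -2.38). On the reduced dose 5 fell and 1 rose, and 7 fell and 1 rose. Of all features 41.6% and 40.1% fell without NTBC, and 22.3% and 19.5% on the reduced dose. Cyp2c37 and Cyp2c54, which make epoxides or hydroxy acids from arachidonic acid, neighbour each other and fell most.

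Cyp2c54 stood at 2.89, 3.30, 3.30 and 3.46 in Fah-/- mice on full NTBC, 0.76, 2.28, 1.94 and 2.64 on the reduced dose and -5.16, -3.91, -4.03 and -4.59 without it. That is a limma change of -7.66 ± 0.56 (SE), adjusted p = 3.28e-11 (202-fold lower) without NTBC, while the reduced dose did not pass (-1.33 ± 0.56, adjusted p = 0.0611), although its arrays lay below those on full NTBC. Fah-/- p53-/- mice went from 1.99, 2.20, 1.27 and 2.65 through -1.23, -1.67, -1.38 and -1.0 to -7.88, -4.46, -4.69 and -4.35. Here the change on the reduced dose passed, at -3.35 ± 0.56 (SE), adjusted p = 5.79e-05 (10.2-fold lower), and that without NTBC was -7.37 ± 0.56 (SE), adjusted p = 5.32e-11 (166-fold lower, 3 of its 4 arrays above background).

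Cyp2c37 had levels of 6.31, 6.65, 6.49 and 6.91 on full NTBC in Fah-/- mice, 4.34, 5.02, 4.96 and 5.29 on the reduced dose and -1.35, 0.57, 0.40 and -0.02 without NTBC. Each dose lay apart from the others, and the changes were -1.69 ± 0.49 (SE), adjusted p = 0.00850 and -6.69 ± 0.49 (SE), adjusted p = 3.71e-11 (103-fold lower without NTBC, limma). They were -1.96 ± 0.49 and -5.88 ± 0.49 in Fah-/- p53-/- mice (58.9-fold lower). A dimmer probe of the gene gave -5.78 ± 0.43 and -5.25 ± 0.43 without NTBC. Cyp2c37 and Cyp2c54 are near-identical copies, so their probes may share signal, which was not tested.

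Cyp2c23 and Cyp2c39 followed. Cyp2c23, an arachidonate epoxygenase and the last Cyp2c gene in chromosome order, went from 6.90, 7.25, 6.90 and 7.23 to 1.38, 2.05, 1.84 and 2.18 in Fah-/- mice (-5.21 ± 0.31, 37.03-fold lower) and changed by -3.85 ± 0.31 in Fah-/- p53-/- mice. Cyp2c39, which also hydroxylates retinoic acid, changed by -4.30 ± 0.30 and -4.49 ± 0.30. All of these falls passed in limma with adjusted p of at most 1.41e-10. Smaller falls were those of Cyp2c29 (-2.37 and -2.87), Cyp2c40 (-1.25 and -2.38) and Cyp2c70 (-1.43 and -1.84), the enzyme that makes the muricholic acids typical of mouse bile. The Cyp2c70 fall in Fah-/- mice was lost with quantile normalization and with the deposited table (-0.55 in each).

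Cyp2c65 and Cyp2c66, P450s of the gut, were higher without NTBC, from near the background. Cyp2c65 was at -4.53, -4.91, -4.48 and -4.45 on full NTBC in Fah-/- mice, above background on 1 array, and at -2.08, -0.77, -1.02 and -2.13 without NTBC. The arrays did not overlap, and the means differed by 3.09, from a level near background. With p53 lacking too, no full-NTBC array was above background and the level without NTBC was -3.62, -1.88, -1.72 and -1.58, at least 4.80-fold higher. This bound sets the measured mean against the lowest signal well above background on the dim arrays. Cyp2c66 went from -3.74, -6.35, -4.98 and -3.81, above background on 2 of 4 arrays, to -2.72, -1.52, -1.39 and -2.54 in Fah-/- mice. With normexp correction these differences were 0.90, 0.12 and 0.48 and none was called. Both genes entered the test through groups in which they were high. Cyp2c55, next to Cyp2c65, changed by 1.03 ± 0.52 in Fah-/- mice and did not pass (adjusted p = 0.0786).

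**Figure D3:**
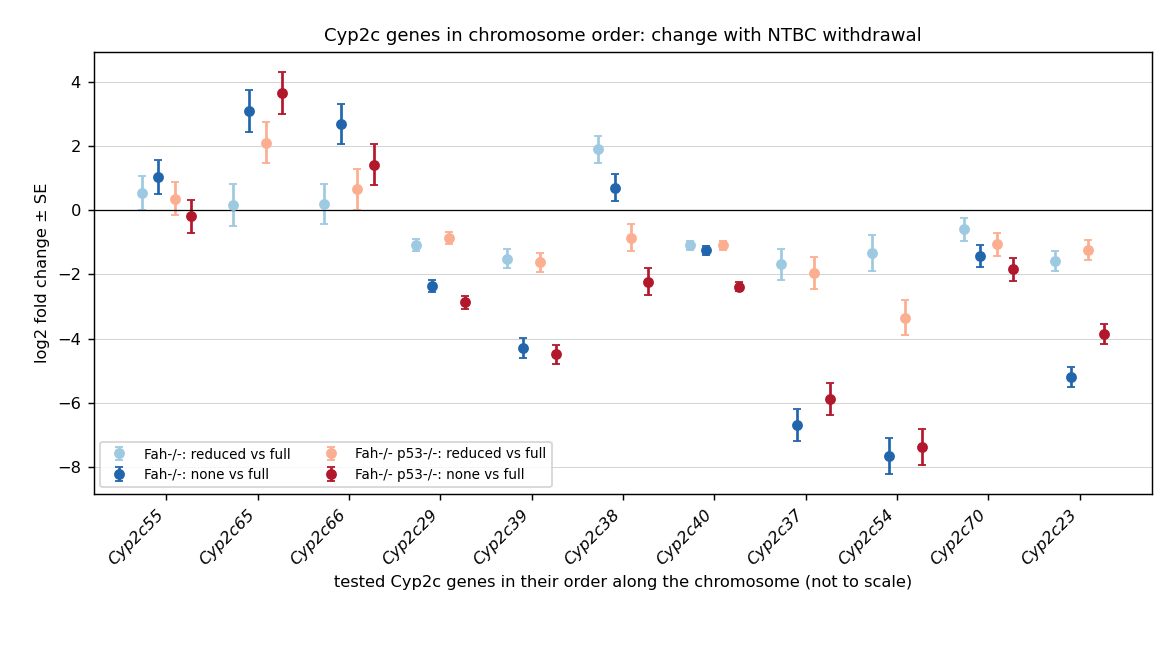
Log2 fold change with its SE (vertical axis) of the 11 tested Cyp2c genes in their order along the chromosome (horizontal axis, not to scale) for the 4 comparisons of reduced or no NTBC with full NTBC. The higher values of Cyp2c65 and Cyp2c66, not called with normexp correction, sit at one end, and Cyp2c37 and Cyp2c54, with changes of -6.69 and -7.66 in Fah-/- mice without NTBC, lie next to each other towards the other end.

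A motif of the liver factor HNF4, spelled CAAAGTCCA and searched on both strands, was in the promoters of 6 of the 42 listed genes (Cyp2c40, Cyp2c65, Cyp2c70, Cyp3a11, Cyp3a16 and Cyp3a41a) and in 0.475% of all 32851 promoters. Some of these genes, picked with the values known, are shown because they did not move together. Cyp2c65 (chr19:39060756-39061055, plus strand) was higher without NTBC in Fah-/- mice by 3.09, from near background and not called with normexp correction. Cyp2c70 (chr19:40187237-40187536, minus strand) fell, with a change of -1.43, and Cyp3a11 (chr5:145879805-145880104, minus strand) changed by -0.29, which did not pass. The carriers not shown, Cyp2c40 (-1.25), Cyp3a16 (-1.21) and Cyp3a41a (-1.19), all fell. Windows of Cyp3a16 and Cyp3a41a were identical at 281 of 300 bases, so their matches may not be separate. The motif is in capitals, on GRCm38.p6 from RefSeq.
Cyp2c65: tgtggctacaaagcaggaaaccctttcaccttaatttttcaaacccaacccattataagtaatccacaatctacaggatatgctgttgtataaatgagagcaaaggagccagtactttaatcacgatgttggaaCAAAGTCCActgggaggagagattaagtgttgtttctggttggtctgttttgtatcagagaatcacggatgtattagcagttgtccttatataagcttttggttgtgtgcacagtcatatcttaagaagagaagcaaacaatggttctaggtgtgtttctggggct
Cyp2c70: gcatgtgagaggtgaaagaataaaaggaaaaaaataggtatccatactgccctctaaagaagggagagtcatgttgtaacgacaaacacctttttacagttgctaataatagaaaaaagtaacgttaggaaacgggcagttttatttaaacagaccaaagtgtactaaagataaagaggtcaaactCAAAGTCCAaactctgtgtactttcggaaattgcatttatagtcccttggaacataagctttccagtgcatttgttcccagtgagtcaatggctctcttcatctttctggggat
Cyp3a11: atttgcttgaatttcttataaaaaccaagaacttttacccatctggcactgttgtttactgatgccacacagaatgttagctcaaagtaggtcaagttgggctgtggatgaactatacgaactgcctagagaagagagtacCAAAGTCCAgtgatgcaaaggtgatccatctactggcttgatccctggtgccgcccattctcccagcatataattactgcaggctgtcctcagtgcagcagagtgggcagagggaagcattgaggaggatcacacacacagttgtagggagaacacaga
The match is a description of the letters and not of binding. Hnf4a itself changed by -0.78 ± 0.12 in Fah-/- mice and -0.76 ± 0.12 in Fah-/- p53-/- mice without NTBC, both called.

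All 6 tested Cyp2d genes, relatives of the human drug-metabolising CYP2D6, fell without NTBC in both genotypes (medians -1.95 and -1.95). In Fah-/- mice all 6 also fell on the reduced dose (median -0.86), and in Fah-/- p53-/- mice 4 of 6 did (median -0.59). Cyp2d9, a male-biased steroid 16-alpha-hydroxylase, had levels of 8.97, 8.99, 8.92 and 9.09 on full NTBC, 7.75, 8.11, 8.17 and 8.33 on the reduced dose and 6.77, 7.04, 7.28 and 7.10 without it. The 3 doses did not overlap, and the limma changes were -0.90 ± 0.16 (SE), adjusted p = 9.47e-05 and -1.95 ± 0.16 (SE), adjusted p = 1.83e-10. Fah-/- p53-/- mice went from 8.25, 8.64, 7.99 and 7.99 to 6.51, 5.96, 6.27 and 6.35 (-1.95 ± 0.16 (SE), limma adjusted p = 1.66e-10). There the arrays on full NTBC were male and those without it female. Without NTBC every Cyp2d fall held under quantile normalization, normexp correction and the deposited table. On the reduced dose this was not so in Fah-/- p53-/- mice, where 3 of the 4 falls were lost under quantile normalization and Cyp2d9 turned to 0.15 with the deposited table.

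Cyp2e1, which oxidises ethanol, acetone and paracetamol near the central vein, fell in steps. Its levels in Fah-/- mice were 8.09, 8.33, 8.22 and 8.53 on full NTBC, 6.93, 7.12, 7.41 and 7.55 on the reduced dose and 4.45, 5.53, 5.65 and 4.84 without NTBC. No arrays overlapped and the change without NTBC was -3.17 ± 0.38 (SE), adjusted p = 1.08e-07 (9.02-fold lower, limma). The change on the reduced dose was -1.04 ± 0.38 (SE), adjusted p = 0.0332, and this call was lost without replicate 2, 3 or 4 of full NTBC or replicate 1 or 2 of the reduced dose (-1.07 to -0.93, adjusted p 0.0513 to 0.0910) and with normexp correction, quantile normalization or the deposited table (-0.99 to -0.61). In Fah-/- p53-/- mice the change without NTBC was -2.43 ± 0.38 (SE), adjusted p = 5.45e-06, and that on the reduced dose did not pass (-0.87 ± 0.38, adjusted p = 0.0746). Cyp2f2, which activates naphthalene and marks the periportal zone, was at 9.05, 9.02, 8.83 and 9.02 on full NTBC and 6.83, 7.21, 7.69 and 7.12 without it, a change of -1.76 ± 0.41 (SE), adjusted p = 0.000512. That call was lost with quantile normalization (-0.65) and the deposited table (-0.75), whereas the fall in Fah-/- p53-/- mice (-2.64 ± 0.41) held in all alternatives.

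Among the Cyp2j epoxygenases 3 of 5 fell in Fah-/- mice without NTBC, beside 41.6% of all features. Cyp2j5 was at 5.54, 5.49, 5.44 and 5.61 on full NTBC, 4.40, 4.77, 4.88 and 5.02 on the reduced dose and 1.93, 2.31, 2.48 and 2.04 without NTBC (-3.33 ± 0.49 (SE), adjusted p = 2.27e-06, 10.05-fold lower, limma). Mice that also lacked p53 gave 5.36, 5.29, 5.38 and 5.68, then 4.03, 3.48, 3.77 and 3.63, then -1.40, 1.18, 1.60 and 1.39, with changes of -1.70 ± 0.49 (SE), adjusted p = 0.00804 and -4.74 ± 0.49 (SE), adjusted p = 9.88e-09 (26.7-fold lower). The doses lay apart in both genotypes, and replicate 1 without NTBC stood lowest in Fah-/- p53-/- mice. Cyp2j9 (changes of -2.31 and -2.81) and Cyp2j13 (-1.87 and -2.14) fell without NTBC in Fah-/- and Fah-/- p53-/- mice. Cyp2r1, the vitamin D 25-hydroxylase, fell in both (-2.31 ± 0.17 and -2.36 ± 0.17), and on the reduced dose (-0.80 and -1.0). Cyp2u1, a fatty acid hydroxylase, fell too (-2.39 ± 0.22 and -1.68 ± 0.22). All of these falls without NTBC held in every alternative tried.

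The Cyp2a genes split. Cyp2a22 rose on the reduced dose and stayed high without NTBC, with 4.29, 5.07, 5.30 and 5.59 on full NTBC in Fah-/- mice, 7.69, 7.45, 7.80 and 7.60 on the reduced dose and 7.17, 7.34, 7.62 and 7.04 without it. Neither later group overlapped the starting one, and the limma changes were 2.57 ± 0.21 (SE), adjusted p = 7.15e-09 (5.94-fold) and 2.23 ± 0.21 (SE), adjusted p = 2.94e-09 (4.70-fold). Fah-/- p53-/- mice stood at 4.90, 5.70, 5.85 and 5.84, then 7.31, 7.31, 6.96 and 7.39, then 6.50, 6.63, 6.69 and 6.39, again without overlap (1.67 ± 0.21 and 0.98 ± 0.21). All 4 rises held in every alternative. Cyp2a5, the coumarin 7-hydroxylase, fell without NTBC (-1.46 ± 0.12 and -1.93 ± 0.12), though in Fah-/- mice the call was lost with the deposited table (-0.22). Cyp2a12, a steroid hydroxylase, fell as well (-1.01 ± 0.27 and -1.64 ± 0.27), the former lost with quantile normalization (-0.31) and the deposited table (-0.35).

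For Cyp2a4, a steroid 15-alpha-hydroxylase nearly identical to Cyp2a5, probes disagreed. The brightest of 3 probes changed by -1.20 ± 0.13 in Fah-/- mice without NTBC, and by 0.14 with quantile normalization, its sign turned. Another probe rose, by 0.69 without NTBC (adjusted p = 0.00439) and by 1.46 on the reduced dose, from levels of 7.15, 8.17, 8.25 and 8.56 to 9.48, 9.46, 9.49 and 9.54. No direction is therefore given for Cyp2a4. The 300-base promoter windows of Cyp2a4 and Cyp2a5 were identical at 294 of 300 bases, and which gene each probe reads was not tested.

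Cyp2b9 and Cyp2b13, female-predominant P450s, varied widely between groups. Their promoters are shown because the signals of their probes moved together. Probes of Cyp2b9 and Cyp2b13 may share signal, which was not tested. At chr7:26173159-26173458 for Cyp2b9 and chr7:26061245-26061544 for Cyp2b13 (plus strand, GRCm38.p6, RefSeq), 298 of 300 bases were identical. The capitals mark the differences, T48C and C104T from Cyp2b9 to Cyp2b13, counted from 1 at the 5′ end of the window.
Cyp2b9: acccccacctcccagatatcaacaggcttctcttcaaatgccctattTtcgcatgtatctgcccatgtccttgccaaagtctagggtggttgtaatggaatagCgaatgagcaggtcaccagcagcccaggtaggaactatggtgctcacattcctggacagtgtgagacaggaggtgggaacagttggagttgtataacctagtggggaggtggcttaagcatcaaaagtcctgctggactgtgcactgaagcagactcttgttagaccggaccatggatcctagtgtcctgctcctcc
Cyp2b13: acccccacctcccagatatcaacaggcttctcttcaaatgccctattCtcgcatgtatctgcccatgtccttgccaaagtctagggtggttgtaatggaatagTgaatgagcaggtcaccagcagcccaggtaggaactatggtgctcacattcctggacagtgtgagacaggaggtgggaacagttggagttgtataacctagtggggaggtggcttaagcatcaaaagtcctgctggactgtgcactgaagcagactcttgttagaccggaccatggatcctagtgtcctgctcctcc
The Cyp2b9 window shared 229 of 300 bases with that of Cyp2b10, the classical CAR target.

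In Fah-/- mice Cyp2b9 was at 0.97, 0.72, 0.45 and 1.14 on full NTBC, 3.97, 3.52, 5.53 and 4.84 on the reduced dose and -0.45, 0.74, 0.44 and 0.76 without NTBC. It thus rose on the reduced dose (3.65 ± 1.06 (SE), adjusted p = 0.00861, 12.5-fold, limma), with no overlap, while the change without NTBC was -0.45 ± 1.06 (adjusted p = 0.718). Cyp2b13 gave -0.76, -0.14, -1.09 and -0.48, then 2.03, 1.53, 3.62 and 2.90, then -1.61, -0.52, -0.73 and -0.13, and a rise of 3.14 ± 1.07 (SE), adjusted p = 0.0226 on the reduced dose. This was lost without replicate 3 of full NTBC (2.98, adjusted p = 0.0510) or replicate 3 of the reduced dose (2.77, adjusted p = 0.0658). Dimmer probes of both genes, above background on 2 and 1 of the full-NTBC arrays, rose too, by 4.64 ± 1.06 (limma adjusted p = 0.00133) and 6.12 ± 1.19. The dimmer Cyp2b13 probe entered the test through groups in which it was high. Cyp2b10 changed by 1.27 ± 0.89 on the reduced dose and 0.13 ± 0.89 without NTBC in Fah-/- mice, and neither passed (adjusted p = 0.268 and 0.904). No brightest Cyp2b probe passed without NTBC in Fah-/- p53-/- mice, where the dimmer Cyp2b13 probe fell (-2.67 ± 1.19, limma adjusted p = 0.0494).

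Cyp2g1, an enzyme of the olfactory mucosa that also hydroxylates steroids, rose as NTBC was lowered in Fah-/- mice, while its changes in Fah-/- p53-/- mice did not pass. Fah-/- mice gave -1.20, -0.30, -0.41 and -0.28 on full NTBC, 1.30, 1.18, 1.47 and 1.14 on the reduced dose and 1.81, 2.01, 3.05 and 1.17 without NTBC. The full-NTBC arrays lay below all others, and limma changes were 1.82 ± 0.37 (SE), adjusted p = 0.000401 and 2.56 ± 0.37 (SE), adjusted p = 1.51e-06 (5.90-fold). Fah-/- p53-/- mice were at -1.57, -1.70, -0.49 and -0.35, then -1.27, -1.10, -0.98 and -1.55, then -0.87, -1.83, -1.63 and -2.65, with overlapping arrays and changes of -0.19 ± 0.37 and -0.72 ± 0.37 (adjusted p = 0.705 and 0.0863). Fah-/- p21-/- mice without NTBC stood at 2.22, 2.13, 1.66 and 2.59, in the range of Fah-/- mice without NTBC. A dimmer probe was above background only in these 2 groups, on all 4 arrays of each, and was at least 3.89-fold higher without NTBC in Fah-/- mice. This dimmer probe entered the test only through these groups, in which it was high. On the reduced dose it was not above background, so that the rise there rests on the brighter probe.

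**Figure D4:**
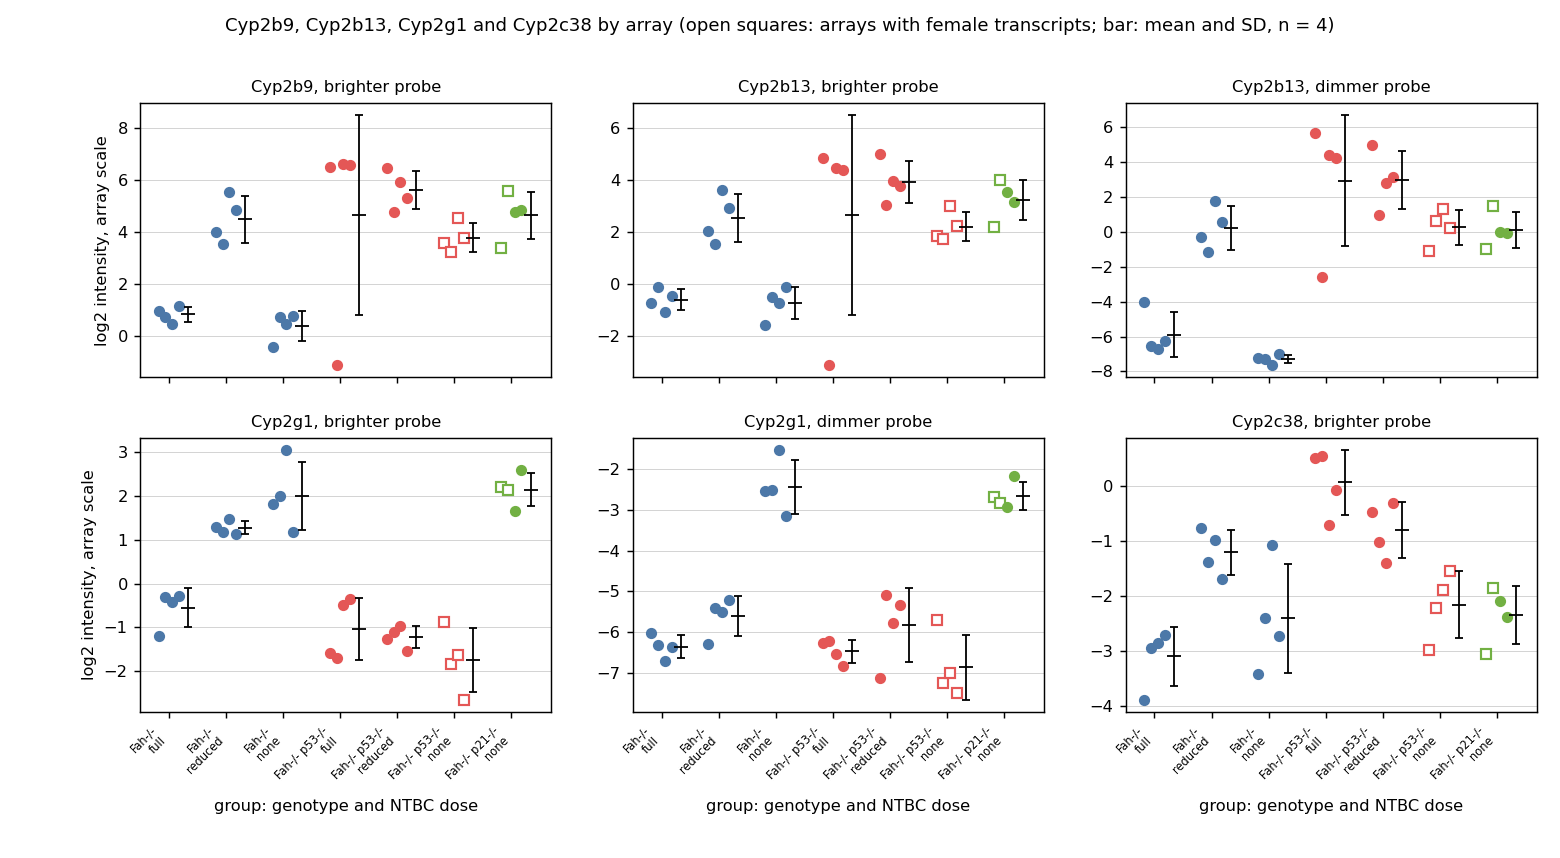
Log2 level relative to the array's 75th percentile (vertical axis) of probes for Cyp2b9, Cyp2b13, Cyp2g1 and Cyp2c38 on each array (points, open squares for arrays with female transcripts) in the 7 groups (horizontal axis), with group means and SD, n = 4. Replicate 2 of Fah-/- p53-/- mice on full NTBC lies at -1.13 for Cyp2b9, with its group at 6.48 to 6.61 otherwise, and Cyp2g1 is low in all Fah-/- p53-/- groups.

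Cyp3a genes, which take the widest range of drugs, changed less. Cyp3a11, the main PXR target, was at 5.25, 5.52, 5.76 and 5.64 on full NTBC in Fah-/- mice and 5.12, 5.49, 5.50 and 4.89 without it, overlapping, with a change of -0.29 ± 0.21 (limma adjusted p = 0.213). By their brightest probes, none of 7 passed on the reduced dose and 4 fell without NTBC in Fah-/- mice (median -0.63), namely Cyp3a13, Cyp3a16, Cyp3a41a and Cyp3a44. The dimmer Cyp3a25 probe rose in Fah-/- mice, on the reduced dose (0.62 ± 0.20) and without NTBC (0.71 ± 0.20, limma adjusted p = 0.0179 and 0.00335). The fall of Cyp3a16 (-1.21 ± 0.21 (SE), adjusted p = 1.55e-05) held in every alternative. Those of the other 3 were lost with quantile normalization (-0.18 to -0.06) and the deposited table, where Cyp3a13 turned to 0.0013. All 7 fell in Fah-/- p53-/- mice without NTBC (median -1.09), Cyp3a13 most (-1.91 ± 0.20 (SE), adjusted p = 1e-08). For Cyp3a11 (-0.59 ± 0.21) and Cyp3a25 (-0.66 ± 0.19) the sign turned with quantile normalization (0.036 and 0.041) and the deposited table (0.10 and 0.13), and Cyp3a11 was lost without replicate 4 of full NTBC (-0.46), or replicate 1 (-0.50) or 2 (-0.47) without NTBC.

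The probes of Cyp3a44, a female-predominant member, gave different pictures. The brighter fell without NTBC in Fah-/- mice (-0.80 ± 0.20). The dimmer was above background on no full-NTBC array of Fah-/- mice (-5.89, -5.01, -6.21 and -6.32) and on all 4 without NTBC (-3.81, -2.71, -3.88 and -3.28), at least 1.96-fold higher. It was also above background on all 4 arrays of the reduced dose, at least 2.67-fold higher than on full NTBC. This dimmer probe entered the test through groups in which it was high. Cyp3a16, Cyp3a41a and Cyp3a44 have promoter windows identical at 281 to 284 of 300 bases, and cross-hybridisation among them was not tested. For Cyp2j6 the brighter probe changed by 0.15 ± 0.12 and 0.53 ± 0.12 without NTBC in Fah-/- and Fah-/- p53-/- mice, and the dimmer by -1.56 ± 0.17 and -1.15 ± 0.17. Among the 15 tested genes with several probes, a pair of probes was called in opposite directions for Cyp2a4 and Cyp3a44 in Fah-/- mice without NTBC, for Cyp2a4 on the reduced dose in Fah-/- p53-/- mice and for Cyp2j6 in Fah-/- p53-/- mice without NTBC.

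**Figure D5:**
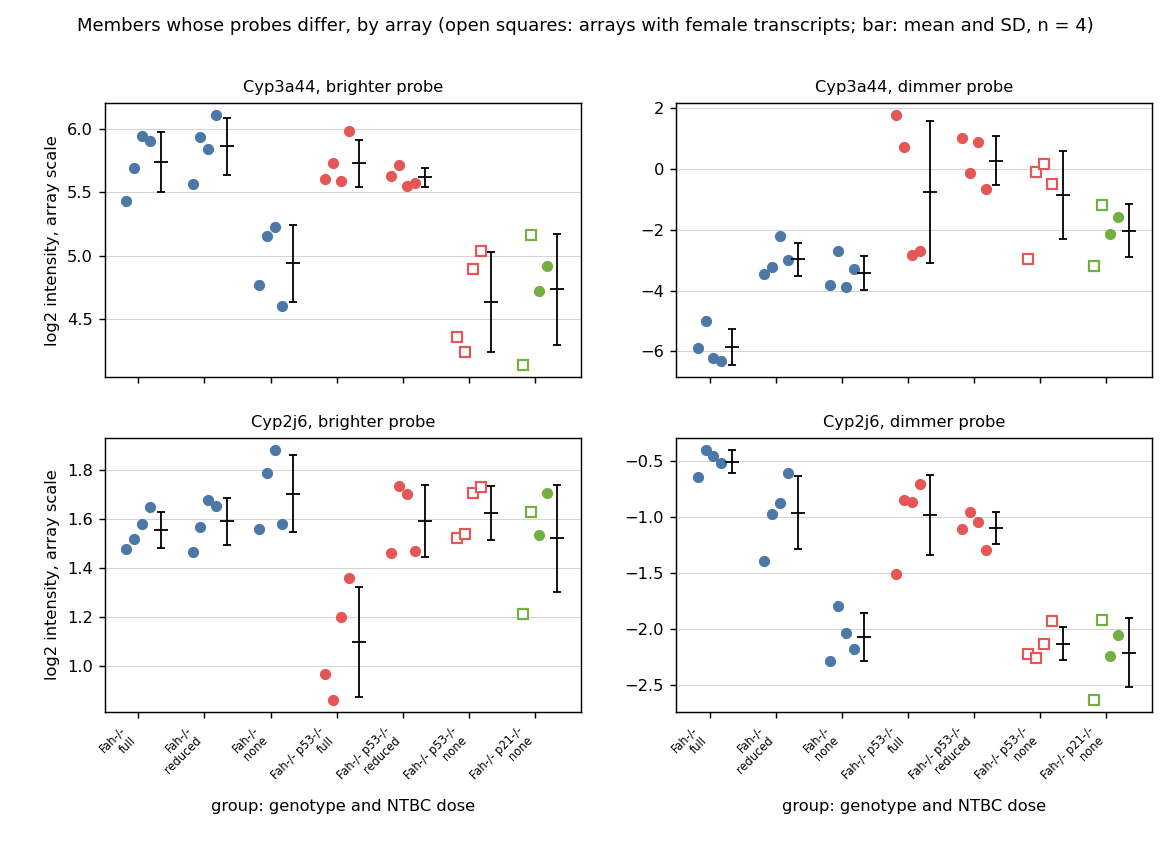
Log2 level relative to the array's 75th percentile (vertical axis) of the brighter and the dimmer probe of Cyp3a44 and of Cyp2j6 on each array (points, open squares for arrays with female transcripts) in the 7 groups (horizontal axis), with group means and SD, n = 4. The dimmer Cyp3a44 probe spans from -6.32 in Fah-/- mice to 1.77 in Fah-/- p53-/- mice on full NTBC, where the brighter one stays between 5.43 and 5.98.

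Loss of p53 was set against Fah-/- mice at each dose. On full NTBC, where all 8 arrays were of male mice and each genotype lay on its own slide, p53 loss gave 12 calls among the 46 genes, 6 higher and 6 lower, beside 13.9% of features (6.34% higher, 7.59% lower). With the deposited table the split was 4 higher and 7 lower, and with normexp correction 4 and 8. Without replicate 2 of Fah-/- mice, or replicate 3 or 4 of Fah-/- p53-/- mice, 7 genes were called. Cyp2c38, a retinoic acid hydroxylase, was 8.96-fold higher without p53, at 0.51, 0.55, -0.69 and -0.08 against -3.88, -2.94, -2.84 and -2.71, the latter above background on 3 of 4 arrays (3.16 ± 0.42 (SE), adjusted p = 1.08e-05, limma). The groups did not overlap, and a dimmer probe gave 2.99 ± 0.45. Cyp2b9 was 14.04-fold higher (3.81 ± 1.06 (SE), adjusted p = 0.0180), at 6.48, -1.13, 6.61 and 6.55. On 3 of these 4 arrays it was far above all Fah-/- arrays, and on replicate 2 below them. Without replicate 2 the difference was 5.73, and without replicate 1, 3 or 4 the call was lost (3.15 to 3.19, adjusted p 0.0686 to 0.0722).

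Cyp2b13 followed the same arrays (4.84, -3.13, 4.47 and 4.37, difference 3.25 ± 1.07 (SE), adjusted p = 0.0439), lost without any 1 of 7 arrays (adjusted p 0.0683 to 0.159) and 5.18 without replicate 2. Replicate 2 was also lowest for Cyp2b10, at -6.45 beside 0.29, -0.50 and -0.55. The dimmer Cyp3a44 probe, which entered the test through groups in which it was high, was at least 12.4-fold higher without p53 on full NTBC. The brighter one gave -0.01 ± 0.20 (limma adjusted p = 0.976). Lower without p53 were Cyp2u1 (-1.24 ± 0.22), Cyp2d22 (-1.08 ± 0.16), Cyp2d12 (-0.95 ± 0.16), Cyp2d9 (-0.78 ± 0.16), Cyp2j6 (-0.46 ± 0.12) and Cyp2c23 (-1.08 ± 0.31, limma). The first 5 of these calls held in every alternative, and that of Cyp2c23 was lost without replicate 2 or 4 of Fah-/- or replicate 1 or 3 of Fah-/- p53-/- mice (-1.03 to -0.98, adjusted p 0.0544 to 0.0666).

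Sex-biased liver transcripts outside these families differed as well. Of 9 tested male-biased genes 8 were lower without p53 on full NTBC and of 6 tested female-biased genes 6 were higher, beside 7.59% and 6.34% of all features. The summed level of the female-biased list was 3.27 to 4.001 on the arrays of Fah-/- mice and 5.74 to 6.69 on those of Fah-/- p53-/- mice, where replicate 2 gave 6.20. The male-biased summed level was 11.46 to 11.83 against 8.73 to 10.63, the latter 10.57, 10.63, 9.10 and 8.73 on replicates 1 to 4. On the reduced dose 7 of the 9 male-biased genes were lower without p53 and 4 of the 6 female-biased ones higher, beside 5.8% and 9.85% of features. Of 9 tested female-biased P450s 3 were higher and 0 lower on full NTBC, and 0 higher and 1 lower on the reduced dose. Cux2, a factor of female liver, was not above background in Fah-/- mice on full NTBC. The part of these sex-biased transcripts in the P450 differences was not tested.

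On the reduced dose, again with 1 slide for each genotype, 5 of 46 genes were called for p53 loss, 1 higher and 4 lower, and 15.6% of features (9.85% higher, 5.8% lower). The split was 3 higher and 4 lower with the deposited table and 0 and 2 with normexp correction. The calls were 3 without replicate 2 or 4 of Fah-/- p53-/- mice, and 15 when 3 arrays of other groups that stand apart were left out of the fit (replicate 2 of Fah-/- p53-/- mice on full NTBC and replicates 1 of Fah-/- p53-/- and Fah-/- p21-/- mice without it), a setting chosen after the data were seen. Cyp2c54 was 9.35-fold lower without p53 (-3.23 ± 0.56 (SE), adjusted p = 0.000433) and Cyp2g1 5.65-fold lower (-2.50 ± 0.37 (SE), adjusted p = 8.76e-05, limma), and these 2 held in every alternative. Cyp2u1 (-0.79), Cyp2j13 (-0.51) and Cyp2b19 (1.0) were each lost without at least 1 array. This was so for Cyp2u1 without replicate 4 of Fah-/- p53-/- mice (-0.61, adjusted p = 0.0718), for Cyp2j13 without replicate 3 or 4 of Fah-/- or 2, 3 or 4 of Fah-/- p53-/- mice (-0.52 to -0.43), and for Cyp2b19 without replicate 1 or 2 of either genotype (0.77 to 1.001).

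Without NTBC p53 loss gave 15 calls among the 46 genes, 1 higher and 14 lower, beside 14.2% of features (7.65% higher, 6.6% lower). With normexp correction the split was 3 higher and 13 lower. This comparison sets 4 female arrays against 4 male ones, so that genotype and sex cannot be told apart in it. Cyp2g1 was 13.5-fold lower (-3.76 ± 0.37 (SE), adjusted p = 7.58e-07, limma), and its dimmer probe at least 7.91-fold lower. On the 1 slide that held both genotypes the Cyp2g1 difference was -4.05 (adjusted p = 0.052, 2 arrays against 2). Cyp2a22 (-0.74), Cyp2c40 (-0.80), Cyp2d12 (-0.97), Cyp2d22 (-0.89), Cyp2d9 (-0.77) and Cyp3a13 (-0.81) were lower too, Cyp2a22 not so without replicate 3 of Fah-/- (-0.63, adjusted p = 0.0822) or replicate 4 of Fah-/- p53-/- mice (-0.69, adjusted p = 0.0635). The dimmer Cyp2d22 probe gave -0.31 and was not called. Several calls leaned on replicate 1 of Fah-/- p53-/- mice. Without it Cyp1a1 went from -1.08 to -0.73 (adjusted p = 0.082), Cyp2j5 from -1.50 to -0.80 (adjusted p = 0.151), Cyp2c55 from -1.69 to -0.97 (adjusted p = 0.103) and Cyp2f2 from -1.23 to -0.70 (adjusted p = 0.159). The first was lost too without replicate 2 or 4 of Fah-/- mice (-1.04 to -1.02), Cyp2j5 without any of those 4 (-1.59 to -1.40), Cyp2c55 without replicate 2 or 3 (-1.56 to -1.45) and Cyp2f2 without replicate 2, 3 or 4 or the other genotype's replicate 4 (-1.36 to -1.07). The count was 9 and 7 without replicates 2 and 3 of Fah-/- mice. With slide as a fixed block 4 of 46 genes were called by limma. Within the shared slide, 2 arrays against 2, none was called, and 10 had an unadjusted p under 0.05.

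Loss of p21 without NTBC gave 6 of 46 calls, 2 higher and 4 lower, against 7.53% of features (3.94% higher, 3.59% lower). With normexp correction there were 3 calls, all higher, and 3 were left without any 1 of the 4 Fah-/- arrays or replicate 1 or 3 of Fah-/- p21-/- mice, and with slide as a fixed block. Cyp2b9 was 19.1-fold higher (4.26 ± 1.06 (SE), adjusted p = 0.0163), at 3.38, 5.55, 4.77 and 4.82 against -0.45, 0.74, 0.44 and 0.76, and Cyp2b13 15.6-fold higher (3.97 ± 1.07 (SE), adjusted p = 0.0250, limma). The arrays did not overlap for either gene. With the male replicates 3 and 4 alone as p21-/- arrays the Cyp2b9 difference was 4.42 (adjusted p = 0.084) and that of Cyp2b13 4.09 (adjusted p = 0.12). The Cyp2b13 call was also lost without replicate 1 or 2 of Fah-/- mice or replicate 2 or 3 of Fah-/- p21-/- mice (3.68 to 4.04). Cyp2b9 was also higher without p53 (3.40 ± 1.06 (SE), adjusted p = 0.0344, lost without any array except replicate 1 of Fah-/- p53-/- mice, 3.13 to 3.58), a comparison that shares the 4 Fah-/- arrays. Cyp2c23 was lower without p21 (-1.32 ± 0.31 (SE), adjusted p = 0.0111), as were Cyp2j5 (-1.70), Cyp2j9 (-0.91) and Cyp2j11 (-0.64). Without replicate 1 of Fah-/- p21-/- mice these 3 were no longer called (-1.19, -0.65 and -0.51), and each was lost without at least 4 other single arrays.

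Set against each other without NTBC, Fah-/- p53-/- and Fah-/- p21-/- mice differed in 9 of 46 genes, 1 higher and 8 lower without p53, against 11.0% of features (5.04% higher, 5.96% lower). There were 5 calls without replicate 2 of Fah-/- p21-/- mice, 14 without replicate 1 of Fah-/- p53-/- mice, 15 without the 3 arrays that stand apart and 1 with slide as a fixed block. Cyp2g1 was 14.9-fold lower without p53 (-3.90 ± 0.37 (SE), adjusted p = 6.85e-07), and Cyp3a25 was lower (-1.02 ± 0.19 (SE), adjusted p = 0.00103). Cyp2c23 was higher (1.60 ± 0.31 (SE), adjusted p = 0.00167, limma). On the slide that held 2 female arrays of each, the differences were -3.53 for Cyp2g1, -0.90 for Cyp3a25 and 1.41 for Cyp2c23 (adjusted p = 0.090, 0.32 and 0.44).

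Whether the response to NTBC depended on p53 was tested as the difference between the 2 genotypes' changes. For the reduced dose 4 of the 46 genes passed, 2 in each direction, beside 10.4% of features (6.74% more positive, 3.64% more negative without p53). For no NTBC 5 of 46 passed, all of them more negative without p53, beside 9.11% of features (4.86% more positive, 4.25% more negative). Without the 3 arrays that stand apart these counts were 9 and 8. With the deposited table the latter were 6 more negative and 2 more positive. The Cyp2g1 response was more negative without p53 at both doses, by -2.02 ± 0.52 (SE), adjusted p = 0.0155 and -3.28 ± 0.52 (SE), adjusted p = 0.000317 (limma). With the mean of its probes the former was -1.07 and not called (adjusted p = 0.13). Cyp2c38 differed by -2.76 ± 0.59 (SE), adjusted p = 0.00462 and -2.92 ± 0.59 (SE), adjusted p = 0.00281. It rose on the reduced dose in Fah-/- mice (-3.88, -2.94, -2.84 and -2.71 to -0.77, -1.38, -0.97 and -1.68) and fell without NTBC in Fah-/- p53-/- mice (0.51, 0.55, -0.69 and -0.08 to -2.97, -2.21, -1.88 and -1.55), from starting levels that already differed. With normexp correction both differences of Cyp2c38 lost their call (-1.51 and -1.37, adjusted p = 0.091 and 0.098).

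Cyp2d22 fell on the reduced dose in Fah-/- mice and changed by 0.19 in Fah-/- p53-/- mice, a difference of 1.01 ± 0.23 (SE), adjusted p = 0.00738 that held in every alternative. The dimmer Cyp2d22 probe changed by -1.18 and -0.49, and its difference of 0.69 was not called. Cyp2d12 differed by 0.68 ± 0.22 (SE), adjusted p = 0.0494, lost without any array except replicate 4 of Fah-/- on the reduced dose and, in Fah-/- p53-/- mice, replicate 2 on the full and replicate 3 on the reduced dose (0.56 to 0.70). Without NTBC Cyp2c40 (-1.13 ± 0.19) and Cyp3a13 (-1.28 ± 0.28) fell further without p53 and Cyp2a22 rose less (-1.25 ± 0.30). These 3 calls were not made with normexp correction (-0.89, -1.10 and -1.07), and the no-NTBC comparison again pairs female with male arrays. Cyp1a1, Cyp2s1, Cyp2c54 and Cyp2c37 showed no called difference for no NTBC: -0.95 ± 0.44, 0.25 ± 0.60, 0.29 ± 0.79 and 0.81 ± 0.69 (adjusted p = 0.188, 0.844, 0.867 and 0.513), which does not show that the genotypes responded alike.

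Lists that cut across the subfamilies hold some of the same genes. Of 8 tested P450s typical of the pericentral zone, 6 fell in Fah-/- mice and 8 in Fah-/- p53-/- mice without NTBC (medians -1.92 and -2.32). Their summed level was 10.12 to 10.60 on full NTBC and 8.22 to 8.75 without it in Fah-/- mice. Of 9 tested female-biased P450s, 1 rose and 5 fell in Fah-/- mice without NTBC, and 0 rose and 5 fell in Fah-/- p53-/- mice. On the reduced dose 3 rose and 1 fell in Fah-/- mice, and 0 rose and 3 fell in Fah-/- p53-/- mice, beside 17.4% and 20.3% of features that rose and 22.3% and 19.5% that fell. P450s known to be induced through CAR and PXR gave 2 falls among 5 in Fah-/- mice and 3 in Fah-/- p53-/- mice without NTBC, and no rise. Of 17 liver P450s of other families, 11 fell and 3 rose in Fah-/- mice, and 12 fell and 4 rose in Fah-/- p53-/- mice. The counts without NTBC stand beside 41.6% and 40.1% of all features that fell and 29.3% and 29.6% that rose.

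Of 4 redox partners of these enzymes 3 fell in each genotype without NTBC, where 41.6% and 40.1% of all features fell, and 1 rose in Fah-/- mice. Por, which feeds electrons to all of these P450s, rose in Fah-/- mice (0.44 ± 0.16, adjusted p = 0.0173), did not pass in Fah-/- p53-/- mice (-0.32 ± 0.16) and was higher without p53 on full NTBC (1.05 ± 0.16, limma). Cyb5a, the cytochrome b5 that aids many P450 reactions, fell (-0.75 and -0.81). Of 13 tested liver regulators 9 fell, 1 rose and 3 were not called in each genotype. Of all features 41.6% and 40.1% fell and 29.3% and 29.6% rose. The falls included Cebpa (-1.29 and -1.97), a hepatocyte factor, and the growth hormone receptor Ghr (-3.54 and -3.21), with Stat5b, its downstream factor, at -1.21 and -1.13.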

How the data were processed

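RNA of 28 mouse liver samples was hybridised in 1 colour (Cy3) to an Agilent mouse array whose probes the file headers place on mm9. The deposited scanner files hold, per spot, processed intensity, background subtracted and detrended within the array, per the file headers (Feature Extraction 10.7.3.1, with 10.5 in the submitters' processing notes). They also hold median spot and background intensities and other values, flags of the software such as well above background, per the file headers. A deposited value table holds log2 values that the authors normalized between arrays in a way not stated in the labels. Its columns correlated at 0.917 to 0.960 with the scanner values of the same arrays and had medians of 6.89 to 6.91.

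Control spots (1639) and spots flagged as outliers (38 to 158 an array) were left out, spots of a probe averaged, and log2 processed intensity taken relative to each array's 75th percentile, which lay at 252 to 578. On each array 54.8% to 68.5% of spots were well above background. Of 41174 probes 27509 passed the filter, which asked for signal well above background on every array of some group. Of the 41174 probes 28462 had a symbol through RefSeq's gene table (GRCm38.p6) and 12712 had none. The brightest passing probe stood for a gene, giving 20303 features, 14574 of them with a symbol. One fit of 7 group means in limma 3.58.1 (R 4.3.3, 21 residual degrees of freedom) gave 11 comparisons with Benjamini-Hochberg adjustment over all features. Probes of 1 gene were tested apart with adjustment over all 27509. Arrays of 1 group correlated at 0.963 to 0.994. Per-array values are given for a panel of members and the 5 called members with the largest rise and fall in each comparison. Members and lists were chosen with earlier results of these data known.

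On data simulated for Fah-/- mice without against on full NTBC (20303 genes), 66 of 100 genes changed by 1 log2 unit and 96 of 100 changed by 2 were called, with 12 of 20103 unchanged genes. In the data 70.9% of features were called in this comparison, far more than were changed in the simulation. The adjusted p depends on that share, so these figures do not give the recovery or false calls of the real comparison. Alternatives were normexp background correction (offset 50, on median spot intensity, since no mean column was in the files), quantile normalization, the deposited table, other filters, the mean of a gene's probes, each array left out, slide or replicate number as a block, and male arrays alone. The number of arrays limits the precision. Same-numbered arrays of different groups deviated together little (mean correlation 0.0287, lowest -0.227, against -0.00861 for other pairs), so replicate numbers were not taken as pairs.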

Additional observations from a re-analysis of the deposited data

Results flagged for a closer look

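Among 105 sets of 4 arrays looked at (15 genes in 7 groups), 11 held an array set apart from the other 3, where chance alone sets about 1 in 20 apart. In Fah-/- p53-/- mice without NTBC the lowest array, replicate 1 in each, was at -1.57 for Cyp1a2, -1.18 for Cyp2c37, -7.88 for Cyp2c54, -3.62 for Cyp2c65, 4.22 for Cyp2e1 and -1.40 for Cyp2j5. In Fah-/- p53-/- mice on full NTBC the lowest was at -1.13 for Cyp2b9 and -3.13 for Cyp2b13, both on replicate 2, and at 4.90 for Cyp2a22 on replicate 1. In Fah-/- mice on full NTBC the lowest was at -4.91 for Cyp2c65 and -1.20 for Cyp2g1.

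The response to NTBC differed between Fah-/- p53-/- and Fah-/- mice, by the test of the difference itself on each gene's brightest probe, for Cyp2c38 (-2.76), Cyp2g1 (-2.02), Cyp2d12 (0.68) and Cyp2d22 (1.01) on the reduced dose. For no NTBC it differed for Cyp2g1 (-3.28), Cyp2c38 (-2.92), Cyp3a13 (-1.28), Cyp2a22 (-1.25) and Cyp2c40 (-1.13).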

How the results depend on the processing

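Of 178 called gene results, 3085 values were computed under alternatives: 2661 kept direction and call, 404 kept direction and lost the call, and 20 changed sign. Of the 1496 values without 1 array, 201 lost the call. With normexp correction signs turned for Cyp1a1 (-0.12), Cyp2a4 (0.31), Cyp2b19 (-0.78) and Cyp2c65 (-0.72) in Fah-/- p53-/- mice on the reduced dose, Cyp1b1 (-0.37) and Cyp2c66 (-0.22) there without NTBC, and Cyp2a5 for p53 loss on full NTBC (-0.0035). Under quantile normalization and the deposited table they turned for Cyp2a4 in Fah-/- mice without NTBC (0.14 and 0.047) and in Fah-/- p53-/- mice on the reduced dose (0.054 and 0.34), and for Cyp3a11 (0.036 and 0.10) and Cyp3a25 (0.041 and 0.13) in Fah-/- p53-/- mice without NTBC. The deposited table alone turned Cyp3a13 in Fah-/- mice without NTBC (0.0013), and Cyp2d9 (0.15) and Cyp3a41a (0.067) in Fah-/- p53-/- mice on the reduced dose. The mean of a gene's probes turned Cyp3a44 in Fah-/- mice without NTBC (0.82) and Cyp2j6 in Fah-/- p53-/- mice without NTBC (-0.31).

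Counts of called members moved by over 1.5 times as follows. With normexp correction they were 14 for the reduced dose in Fah-/- p53-/- mice, 2 for p53 loss on the reduced dose, 3 for p21 loss, and 2 and 2 for the p53 dependence of the reduced dose and of no NTBC. The last was 8 with quantile normalization and 8 with the deposited table. For p53 loss on the reduced dose it was 3 when every array had to exceed background and 8 with the mean of probes, and for p21 loss 3 without a filter and 3 with male arrays alone. With slide as a fixed block the counts were 4 for p53 loss without NTBC, 3 for p21 loss and 1 for p53 against p21 loss. Within 1 slide limma called 0 in each, with 10, 5 and 9 of 46 at an unadjusted p under 0.05. With the 3 arrays that stand apart left out (chosen after the data were seen: replicate 2 of Fah-/- p53-/- mice on full NTBC and replicates 1 of Fah-/- p53-/- and Fah-/- p21-/- mice without NTBC) they were 15 for p53 loss on the reduced dose, 15 for p53 against p21 loss, and 9 and 8 for the p53 dependence of the reduced dose and of no NTBC. The cause of these shifts was not tested. Without 1 array the counts ranged from 20 to 23 and 34 to 36 for reduced and no NTBC in Fah-/- mice, 19 to 23 and 36 to 41 in Fah-/- p53-/- mice, 7 to 11, 3 to 5 and 7 to 14 for p53 loss on full, reduced and no NTBC, 3 to 5 for p21 loss, 5 to 14 for p53 against p21 loss, and 3 to 6 and 5 to 7 for the p53 dependence.

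With the replicate number as a block the counts were 23, 36, 26 and 40 for the dose comparisons, 12, 6 and 15 for p53 loss, 7 and 9 for the p21 comparisons and 6 and 6 for the p53 dependence, and 177 of 178 called gene results kept their call, all but Cyp3a13 in Fah-/- p53-/- mice on the reduced dose (-0.51, adjusted p = 0.0543). The median over all features in Fah-/- mice without NTBC was -0.17, against 0.01 with quantile normalization and -0.37 with normexp correction, and changes near these sizes depend on the scaling. Dim probes limit Cyp1b1, Cyp2c65 and Cyp2c66, whose full-NTBC signal lay near background and was above it on some arrays only.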
